A study of Mus musculus with 51 samples.

Results

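The 22 clonal lines described as C-class cells at day 16 of primary reprogramming were set against the 2 fibroblast arrays of the study. These 24 of the 51 arrays were chosen by the submitters' labels alone. All of them carry the strain label rtTA Mouse, which names the transactivator that lets doxycycline switch genes on. The clones grew out of mouse embryonic fibroblasts that received c-Myc, Oct4, Sox2 and Klf4, and each was kept in doxycycline so that these factors stayed on. The fibroblast arrays are the parental cells, labelled Primary MEF and E15.5 embryo, and the secondary fibroblasts (2MEF) at day 0 of a secondary course, labelled 1B. The labels give no doxycycline for either fibroblast array and do not say how a clone was classed, whether the arrays came from separate cultures, or what medium the fibroblasts grew in. Each C-class array is 1 clone and each kind of fibroblast is 1 array. A p-value here speaks only for how far arrays scattered within their groups, pooled over 34 arrays of fibroblasts, clones and pluripotent lines. That spread comes mostly from the clones and is lent to the 2 fibroblast arrays, whose own scatter can be wider.

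Fibroblasts are mesenchymal cells that secrete and organise a collagen-rich matrix, pull on it through integrins and stress fibres, and form no sealed cell sheet. Reprogramming by these 4 factors is known to pass through a mesenchymal-to-epithelial transition, in which regulators of the Snail, Zeb and Twist families go down while E-cadherin, claudins and keratins come up. Cell division speeds up in the same period, and the network of pluripotency genes usually comes on later and not in every cell.

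Levels are normalized log2 intensities, on which a step of 1 is a 2-fold difference. The dimmest probe told from background lay between 5.36 and 5.69 on these arrays. A gene was called where limma's adjusted p (Benjamini-Hochberg over 11046 genes) was under 0.05, and a fold stands as "at least" where no more than 1 of the 2 fibroblast arrays or 11 of the 22 clones, whichever group was lower, detected the gene, with undetected arrays set no lower than their dimmest detected signal. Where some but not all arrays of the lower group detected a gene, their number stands in brackets after the fold, as in 8 of 22 clones or 1 of 2 fibroblast arrays. Detected probes made up 47.5% to 52.2% of each array. Median raw intensity was 119.8 to 138.5 in the clones, 120.9 in the primary and 174.7 in the secondary fibroblasts. Pearson's correlation across genes was 0.933 to 0.994 between clones and 0.962 between the fibroblast arrays, which differed by more than 2-fold at 1410 genes. The fibroblast label fitted its markers. Thy1, a surface protein of fibroblasts, read 14.56 and 14.70 in the fibroblasts against 9.78 to 12.07 (median 11.24) in the clones. Thy1 was not particular to fibroblasts, at 13.02 and 11.60 in embryonic stem cells and 13.84 and 13.51 in induced pluripotent stem cells. Of 13 fibroblast markers tested, 12 were called lower in the clones, the exception being S100a4 (log2 fold change -0.04, SE 0.50, adjusted p = 0.95).

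The comparison asks which genes differed between the clones and the fibroblast arrays. Only the primary array is labelled parental, and the labels do not say that any clone came from the secondary fibroblasts. In all, 6633 genes were called, which is 60.0% of those tested. Of all genes tested, 3487 (31.6%) were higher in the clones and 3146 (28.5%) lower, and the median log2 fold change over all genes was 0.09. At least 8-fold differences were found for 251 genes that rose and 353 that fell. All 22 clones lay above both fibroblast arrays at 2529 genes (22.9%) and below both at 2310 (20.9%), together 43.8%. These shares are the background against which the gene groups below should be read. Fewer of all genes tested were called when either fibroblast array was left out, so list counts without 1 array have a lower background. The arrays measure RNA from whole cultures, in which fewer cells of a type and less RNA per cell cannot be told apart.

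**Figure D1:**
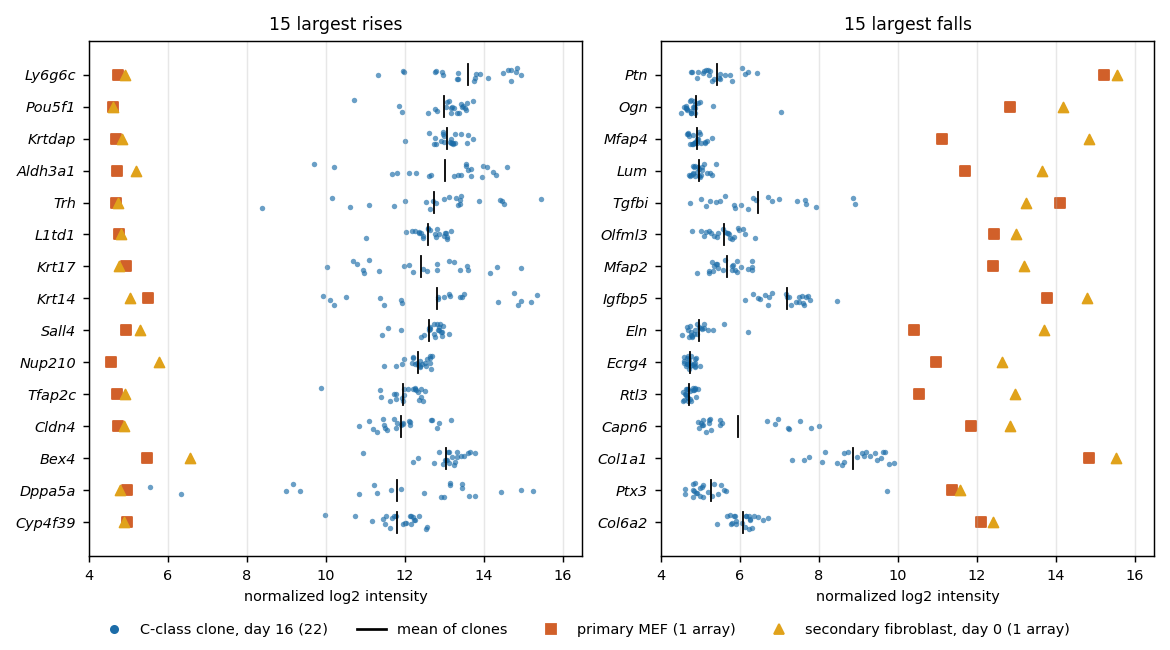
Normalized log2 intensity of the 15 genes with the largest rise (left) and the 15 with the largest fall (right) between fibroblasts and C-class clones. Each blue point is 1 of 22 clones, the black bar is their mean, and the orange square and yellow triangle are the primary and secondary fibroblast arrays. The groups are separate for every gene shown, which the choice by size of change favours. The clones spread widely for Trh, Dppa5a, Krt14 and Krt17.

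The largest rises brought together genes of stratified epithelium and genes of pluripotent cells. Ly6g6c, a small surface protein of the Ly6 family, read 4.73 and 4.91 in primary and secondary fibroblasts, and the clones lay between 11.32 and 14.95 with a median of 13.76. Every clone was far above both fibroblast arrays, by at least 271-fold on average (adjusted p = 1.7e-08). Krtdap, a secreted protein of differentiating keratinocytes, read 4.68 in primary and 4.85 in secondary fibroblasts, with clones from 12.01 to 13.72 around a median of 13.16. Aldh3a1, an aldehyde dehydrogenase abundant in the cornea, read 4.71 in the primary and 5.20 in the secondary fibroblast array and ran from 9.70 through a median of 13.49 to 14.59 in the clones. Both were absent by detection from the fibroblasts and high in all clones, and their rises were at least 189-fold and at least 181-fold (adjusted p = 4.3e-18 and 1.6e-08). Among the pluripotency-associated genes in this group, Trh, the precursor of thyrotropin-releasing hormone, rose at least 149.8-fold (adjusted p = 3.3e-08) with clones from 8.37 through 13.05 to 15.44. L1td1, an RNA-binding protein derived from a transposon, was tighter, with clones from 11.03 to 13.18 and a rise of at least 135-fold (adjusted p = 2.4e-16). Nup210, a membrane protein of the nuclear pore, read 4.55 and 5.79 in primary and secondary fibroblasts, and the clones lay between 11.47 and 12.69 with a median of 12.38. It was the least spread of the 15, and its rise was at least 99.6-fold (1 of 2, adjusted p = 7.8e-22).

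Secreted proteins led the falls. Ptn, the heparin-binding growth factor pleiotrophin, read 15.23 in primary and 15.55 in secondary fibroblasts, with clones from 4.75 to 6.44 around a median of 5.32. It was among the brightest signals in the fibroblasts and near background in most clones, a fall of at least 830.2-fold (8 of 22, adjusted p = 3e-19). Ogn, the small proteoglycan osteoglycin, read 12.85 in the primary and 14.18 in the secondary fibroblast array and ran from 4.52 through a median of 4.77 to 7.04 in the clones, and fell at least 243-fold (1 of 22, adjusted p = 4.4e-18). Tgfbi, a matrix protein first found as a target of TGF-beta, read 14.11 and 13.25 in primary and secondary fibroblasts, and the clones lay between 4.73 and 8.92 with a median of 6.27. Its SD over the clones was 1.20, the widest of the 15 falls, yet no clone came near the fibroblasts and the mean fall was 148-fold (15 of 22, adjusted p = 6.6e-09). Igfbp5, a binding protein for insulin-like growth factors, kept a measurable level in every clone (6.12 to 8.45, against 13.79 and 14.79) despite a fall of 137-fold (adjusted p = 7.7e-14). Rtl3, a gene of retrotransposon origin, and Ecrg4, a secreted peptide precursor, fell at least 74.8-fold (Rtl3) and at least 78.2-fold (Ecrg4), with all clones between 4.55 and 4.94 and between 4.58 and 5.00.

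The clones varied among themselves, and more visibly in what they gained. Among the 251 genes at least 8-fold higher the median SD over clones was 0.727, and 79 had an SD over 1. Among the 353 genes at least 8-fold lower the median SD was 0.472, and 15 had an SD over 1. In every clone 350 of the 353 lay below both fibroblast arrays, and 240 of the 251 above them. Both sets were picked by the size of this same difference, which favours such separation. A level at background has no room to vary, so these SDs do not stand on an equal footing. No fibroblast array detected 153 of the 251, and no clone detected 40 of the 353. The called genes with the widest spread included Dppa5a, Dppa4 and Dnmt3l, genes of pluripotent cells and germ cells, Lefty2, an inhibitor of Nodal, the keratin Krt90, and Lypd3, a surface protein of keratinocytes. Dppa5a read 4.97 in primary and 4.79 in secondary fibroblasts, with clones from 5.55 to 15.24 around a median of 12.71. Its lowest clone, clone 20, was the lowest of the 22 for Pou5f1, Sall4, Bex4 and Trh as well. Krt90 read 4.62 in the primary and 4.83 in the secondary fibroblast array and ran from 5.24 through a median of 8.15 to 13.38 in the clones, and without either fibroblast array its call ended (log2 fold change 3.90 without the primary and 4.11 without the secondary array, adjusted p = 0.14 and 0.14).

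**Figure D2:**
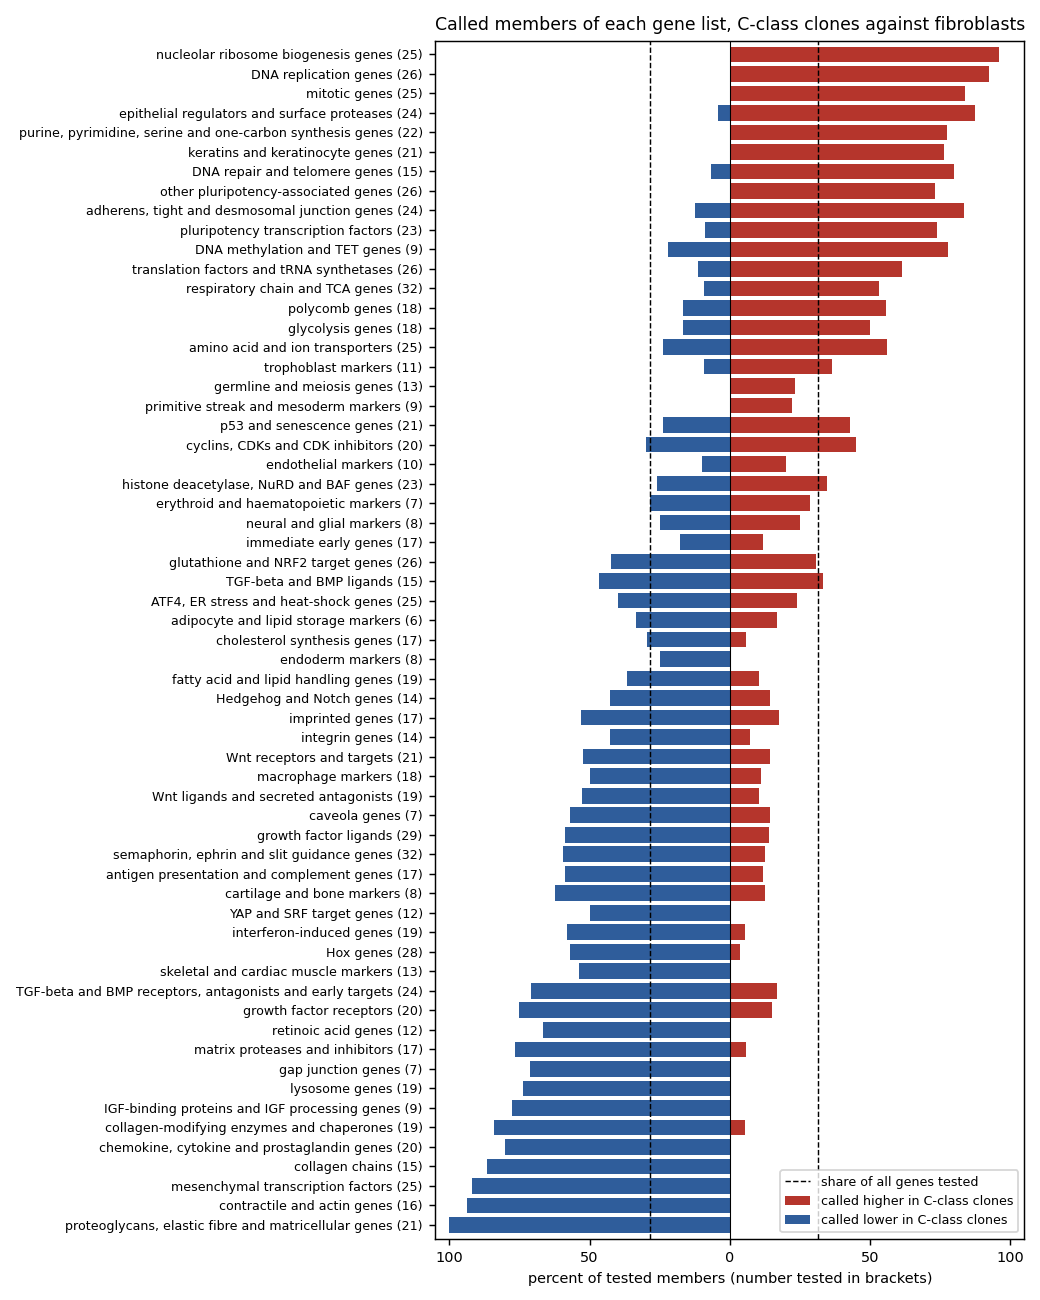
Share of the tested members of each gene list that were called higher (red, to the right) or lower (blue, to the left) in C-class clones than in fibroblasts, in percent, with the number tested in brackets. Dashed lines mark the shares over all genes tested, 31.6% higher and 28.5% lower. Nucleolar, replication, mitotic and epithelial lists reach far past the right line, and matrix, contractile and mesenchymal lists far past the left one.

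Most genes of the extracellular matrix fell. Of 15 collagen chains tested, 13 were called lower and 0 higher, with a median log2 fold change of -4.13. Col6a2, a chain of the beaded filament collagen, read 12.11 and 12.42 in primary and secondary fibroblasts, and the clones lay between 5.43 and 6.71 with a median of 6.14, a fall of 72.5-fold (21 of 22, adjusted p = 2.7e-15). Col3a1 and Col1a2, chains of the fibrillar collagens of connective tissue, fell at least 41.4-fold (1 of 22) and 27.0-fold (19 of 22, adjusted p = 6.1e-15 and 1.3e-13). Col18a1, which belongs to basement membranes, and Col11a1, a minor chain of cartilage fibrils, did not pass (log2 fold change -0.52 and 0.41, adjusted p = 0.37 and 0.056). The probes of Col11a1 disagreed, and with the mean of its probes its value was -0.65 and passed. The enzymes and chaperones that build collagen fell at 16 of 19 members, with a median of -2.92. Lox and Loxl1, the oxidases that crosslink collagen and elastin, fell 23.6-fold and 21.7-fold, and Serpinh1, the collagen chaperone of the endoplasmic reticulum, fell 12.2-fold (adjusted p = 6.9e-08, 2.5e-09 and 6.1e-08). The 1 member called higher was Pcolce2, an enhancer of procollagen processing, at 9.32 and 7.51 in the fibroblasts against 10.50 to 11.97 (median 11.10) in the clones (adjusted p = 1.1e-08), whereas its relative Pcolce fell 16.0-fold.

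All 21 proteoglycan, elastic fibre and matricellular genes tested fell, with a median log2 fold change of -3.58, and in each of them every clone lay below both fibroblast arrays. Eln, which encodes elastin, read 10.40 in primary and 13.71 in secondary fibroblasts, with clones from 4.54 to 6.20 around a median of 4.89. The fibroblast arrays differed here too, the secondary one being the brighter, and the fall was at least 90.3-fold (1 of 22, adjusted p = 3.2e-16). Mfap4, a microfibril-associated protein, fell at least 177-fold (adjusted p = 6e-18) from 11.12 and 14.85, and no clone detected it. Thbs2, an antiangiogenic matricellular protein, fell 49.5-fold (adjusted p = 5.4e-12). Of 17 matrix proteases and inhibitors, 13 fell, including Mmp2, a gelatinase, and Adamts5, an aggrecan-cutting protease, by 30.2-fold and at least 25.6-fold (adjusted p = 2e-10 and 7.9e-18). Mmp9, Mmp19 and Timp1 did not pass. Mmp10 was called higher (log2 fold change 1.77, adjusted p = 0.027), but the groups overlapped and the call ended without the primary or the secondary array (1.57 and 1.96, adjusted p = 0.17 and 0.1).

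Cytoskeletal genes moved the same way by smaller amounts. Of 16 contractile and actin genes, 15 fell, with a median of -1.85. Tagln, an actin-binding protein of smooth muscle and fibroblasts, read 11.26 in the primary and 10.72 in the secondary fibroblast array and ran from 6.82 through a median of 8.79 to 9.61 in the clones. Vim, the mesenchymal intermediate filament vimentin, read 14.63 and 14.61 in primary and secondary fibroblasts, and the clones lay between 10.53 and 12.99 with a median of 12.22. All clones were below the fibroblasts for both, yet both stayed far above background, with falls of 5.17-fold and 5.88-fold (adjusted p = 2e-04 and 8.7e-06). Caveola genes fell at 4 of 7 members, led by Ehd2, an ATPase of the caveolar neck, and Cavin3 (4.63-fold and 4.47-fold, adjusted p = 1.1e-07 and 6.6e-07). The 1 called higher was Pacsin2 (log2 fold change 0.50), a call that ended with array weights or median centring. Targets of YAP and SRF, the regulators that answer to cell tension, fell at 6 of 12 members, but at 2 when the primary array was left out. The focal-adhesion proteins Vcl and Zyx were in that list at log2 fold changes of -1.46 and -1.14 (adjusted p = 1.5e-06 and 0.0027), and the Zyx call ended without the primary array (-0.77, adjusted p = 0.14).

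Integrins, the receptors for matrix, mostly fell or did not pass. Of 14 tested 6 fell and 1 rose (42.9% and 7.14%, against 28.5% and 31.6% of all genes tested). Itga11, a collagen receptor of fibroblasts, read 13.35 in primary and 13.40 in secondary fibroblasts, with clones from 6.41 to 8.17 around a median of 7.59, a fall of 63.8-fold (adjusted p = 7.5e-12). Itga1, another collagen receptor, and Itga5, the fibronectin receptor chain, fell at least 6.07-fold and 5.61-fold (adjusted p = 4.2e-15 and 9.8e-07). The member that rose was Itgb4, the beta chain that anchors epithelia to their basement membrane through hemidesmosomes, which read 7.24 in the primary and 7.02 in the secondary fibroblast array and ran from 11.48 through a median of 12.02 to 13.40 in the clones. The groups did not overlap and the rise was 33.3-fold (adjusted p = 3.8e-09). Itga3, a laminin receptor chain, stood at a log2 fold change of 1.55 (SE 0.79) and was not called (adjusted p = 0.093).

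Transcription factors that maintain mesenchyme fell at 23 of 25 members, with a median of -2.85, and none rose. Twist1, a basic helix-loop-helix factor that drives the epithelial-to-mesenchymal transition, read 10.20 and 11.17 in primary and secondary fibroblasts, and the clones lay between 5.53 and 7.12 with a median of 6.47. Zeb1, a zinc-finger repressor of E-cadherin, read 10.80 in primary and 11.64 in secondary fibroblasts, with clones from 6.29 to 8.17 around a median of 7.61. No clone reached the fibroblast range for either, and the falls were 20.6-fold (20 of 22) and 12.9-fold (adjusted p = 2.9e-15 and 5e-10). The homeobox factor Meox2 read 9.03 in the primary and 9.54 in the secondary fibroblast array and ran from 4.49 through a median of 4.68 to 8.68 in the clones. Most clones stood at background for it and 1 came close to the primary array, and the fall was at least 11.6-fold (4 of 22, adjusted p = 2.6e-07). Nfix, Msx1 and Runx1 fell 14.9-fold, 12.6-fold (21 of 22) and 6.35-fold (12 of 22, adjusted p = 7e-08, 1.2e-07 and 8.9e-07). Foxd1 and Msx2 did not pass (log2 fold change 0.28 and -0.64, adjusted p = 0.69 and 0.1).

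Hox genes, which record the body position of a fibroblast, fell at 16 of 28 members tested and rose at 1, with a median of -1.54. Hoxd10 read 8.68 and 8.93 in primary and secondary fibroblasts, and the clones lay between 4.73 and 6.17 with a median of 5.22. Hoxc6 read 11.45 in primary and 11.68 in secondary fibroblasts, with clones from 6.63 to 11.09 around a median of 8.59. Both were separate from the fibroblasts in every clone, with falls of at least 9.19-fold (5 of 22) and 7.58-fold (adjusted p = 8.1e-13 and 7.8e-05). Hoxa5 and Hoxb2 fell 7.36-fold (19 of 22) and 6.81-fold (20 of 22, adjusted p = 2.7e-05 and 1.1e-07). The 1 called higher, Hoxc8, was undetected in the fibroblasts at 4.78 and 4.83 and had a clone median of 5.33, and its call ended without either fibroblast array (log2 fold change 0.47 and 0.52, adjusted p = 0.11 and 0.096).

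**Figure D3:**
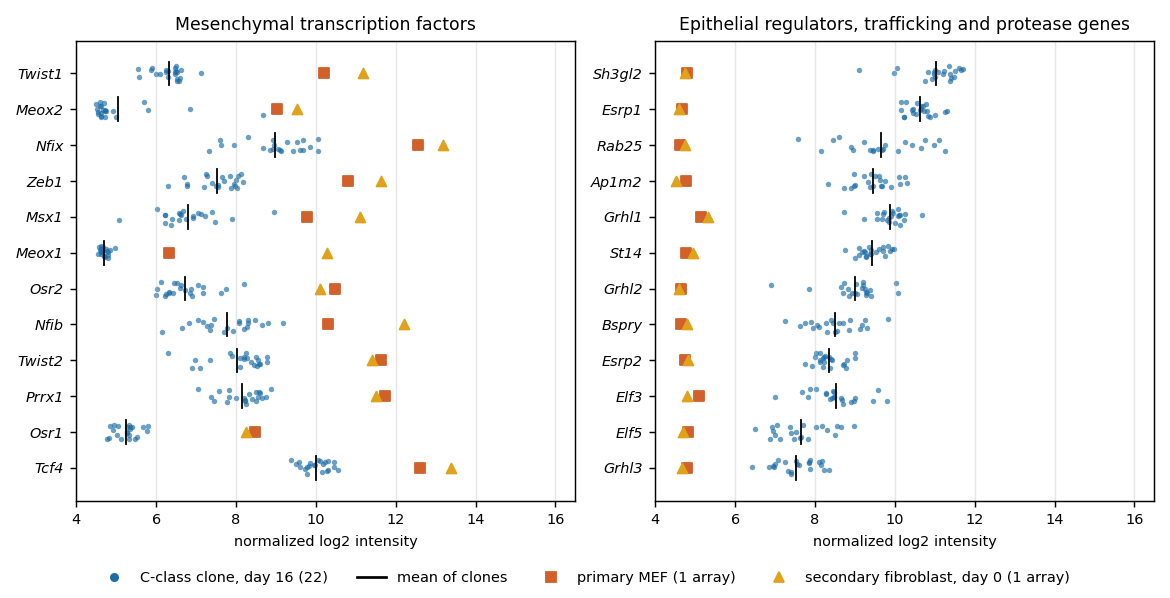
Normalized log2 intensity of the 12 mesenchymal transcription factors (left) and the 12 epithelial regulators, trafficking and protease genes (right) with the largest change in their list. Points are the 22 C-class clones, bars their means, squares the primary and triangles the secondary fibroblast array. Clones lie below the fibroblasts on the left and above them on the right, with 1 clone close to the primary array for Meox2. The choice by size of change favours such separation.

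Genes of epithelial junctions rose. Of 24 adherens, tight and desmosomal junction genes tested, 20 rose and 3 fell. The median log2 fold change was 2.60, or 2.29 with undetected genes at their bound. Cdh1, which encodes E-cadherin, read 6.26 in the primary and 5.09 in the secondary fibroblast array and ran from 11.06 through a median of 11.34 to 11.83 in the clones. It varied little between clones (SD 0.22), and the rise was at least 44.7-fold (1 of 2, adjusted p = 2.1e-14). The tight-junction claudin Cldn6 read 4.65 and 5.16 in primary and secondary fibroblasts, and the clones lay between 8.26 and 13.02 with a median of 11.24, a rise of at least 43.9-fold (adjusted p = 2.8e-06). Lsr, a receptor of tricellular junctions, and Pkp1, a desmosomal plaque protein, rose at least 13.5-fold and at least 14.4-fold (adjusted p = 1.5e-15 and 5.8e-11). The 3 members that fell were Cdh2 and Cdh11, the cadherins of mesenchyme, by 3.60-fold (15 of 22) and 7.90-fold (19 of 22, adjusted p = 0.00014 and 7.4e-11), and the claudin Cldn1 by at least 2.73-fold (8 of 22, adjusted p = 3.2e-05). Gap junction genes behaved otherwise, with 5 of 7 lower, among them Gja1, the main connexin of fibroblasts, by 2.66-fold (adjusted p = 4.5e-05).

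Regulators and surface proteases of epithelia rose at 21 of 24 members, with a median of 2.79, or 2.07 at the bounds. Esrp1, a splicing factor that sets epithelial isoforms, read 4.66 in primary and 4.59 in secondary fibroblasts, with clones from 10.16 to 11.30 around a median of 10.63. Grhl1, a Grainyhead-like transcription factor, read 5.14 in the primary and 5.31 in the secondary fibroblast array and ran from 8.72 through a median of 9.91 to 10.68 in the clones. Rab25, a small GTPase of recycling endosomes in polarised cells, read 4.63 and 4.74 in primary and secondary fibroblasts, and the clones lay between 7.57 and 11.26 with a median of 9.63. All were at background in both fibroblast arrays and well above it in every clone, with rises of at least 34.5-fold, at least 20.4-fold and at least 17.6-fold (adjusted p = 3.8e-14, 1.1e-14 and 2.8e-07). Rab25 varied most among them (SD 0.99). St14, which encodes the membrane protease matriptase, and Ap1m2, the epithelial adaptor subunit for basolateral sorting, rose at least 15.2-fold and at least 15.4-fold (adjusted p = 3.5e-14 and 1.6e-09). Sh3gl2, an endophilin known from synapses, rose at least 45.7-fold (adjusted p = 1.5e-14). Ddr1, a collagen receptor kinase, fell 1.93-fold (adjusted p = 0.00019), and Trp63 and Tmprss2 did not pass.

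The promoters of these genes were searched for CACCTG or CAGGTG, which is 1 E-box read on either strand and the letters that Snail and Zeb repressors are known to bind. Windows of 250 bases before and 50 after each RefSeq start (GRCm38.p6) were used. Of the 41 junction and epithelial regulator genes called higher, 23 had a window, and 19 of these (82.6%) held the letters. The same was true of 22.0% of the 8900 tested genes with a window, of 23.1% of those called higher and of 18.7% of those called lower. Among genes at least 8-fold higher it was 72 of 190, and among those at least 8-fold lower 41 of 265. Some genes have several starts, and counted by window the letters were in 71.9% of the group's 32 windows and 18.9% of the 11447 of tested genes. Of 2 other E-boxes, each also counted on both strands, CACGTG was in 8.7% of the 23 genes against 11.3% of tested genes, and CAGCTG in 26.1% against 18.3%. The GC content of the windows was 60.5% for the group and 59.8% for tested genes. A match describes the letters in the window and shows no binding. The 250 bases before the start are given for Cldn4 and Cldn7, and for Rab25 and Ap1m2, the latter pair picked after their values were seen because they hold 2 and 4 matches. Cldn7 has another start, with no match in the 250 bases before it, and the start with 2 matches was chosen for printing after this was seen. They run 5′ to 3′ on the gene's strand, with the matches in capitals.
Cldn4 (chr5:134946935-134947184, minus strand): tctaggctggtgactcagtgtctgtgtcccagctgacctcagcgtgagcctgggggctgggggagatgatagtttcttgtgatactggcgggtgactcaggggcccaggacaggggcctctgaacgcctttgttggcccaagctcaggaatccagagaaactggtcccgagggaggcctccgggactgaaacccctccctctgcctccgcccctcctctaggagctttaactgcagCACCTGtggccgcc
Cldn7 (chr11:69965171-69965420, plus strand): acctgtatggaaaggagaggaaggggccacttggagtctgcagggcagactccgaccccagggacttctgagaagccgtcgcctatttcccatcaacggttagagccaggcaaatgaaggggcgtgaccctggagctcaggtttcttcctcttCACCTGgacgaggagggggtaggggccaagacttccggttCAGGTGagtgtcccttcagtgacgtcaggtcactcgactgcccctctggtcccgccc
Rab25 (chr3:88548280-88548529, minus strand): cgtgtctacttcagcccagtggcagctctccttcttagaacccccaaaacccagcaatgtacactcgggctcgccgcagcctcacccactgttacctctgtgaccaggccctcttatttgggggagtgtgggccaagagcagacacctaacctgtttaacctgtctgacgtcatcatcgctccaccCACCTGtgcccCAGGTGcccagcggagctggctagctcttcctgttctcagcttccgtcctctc
Ap1m2 (chr9:21312334-21312583, minus strand): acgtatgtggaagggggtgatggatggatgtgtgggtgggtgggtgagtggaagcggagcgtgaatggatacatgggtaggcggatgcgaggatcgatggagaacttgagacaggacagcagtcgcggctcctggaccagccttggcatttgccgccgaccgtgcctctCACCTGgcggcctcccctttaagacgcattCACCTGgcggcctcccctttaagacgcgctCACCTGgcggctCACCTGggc
Within these 250 bases Cldn4 has its only match close to the start, and Ap1m2 has its 4 in a cluster near the start. Cldn7 read 5.42 in primary and 5.78 in secondary fibroblasts, with clones from 6.27 to 7.96 around a median of 7.23, a rise of at least 2.83-fold (1 of 2, adjusted p = 0.00019), and Cldn4 rose at least 84.6-fold. Ovol2, a repressor of mesenchymal genes, had no match in the 250 bases before its start and rose 3.08-fold (adjusted p = 1.1e-07), with probes that disagreed.

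Keratins and keratinocyte genes rose at 16 of 21 members and fell at 0, with a median of 2.93. Krt14, the keratin of basal epidermal cells, read 5.49 in the primary and 5.04 in the secondary fibroblast array and ran from 9.93 through a median of 13.05 to 15.34 in the clones. Krt17, an inducible keratin of skin appendages, read 4.93 and 4.76 in primary and secondary fibroblasts, and the clones lay between 10.04 and 14.94 with a median of 12.51. Krt8, the keratin of simple epithelia, read 5.60 in primary and 6.32 in secondary fibroblasts, with clones from 11.83 to 14.05 around a median of 12.66. The simple keratin was the tightest of the 3, with an SD of 0.68 against 1.71 and 1.33, and all clones lay above the fibroblasts in each case. The rises were at least 159-fold, at least 119.7-fold and 111-fold (adjusted p = 2.9e-06, 7.6e-08 and 5.7e-10). Sfn, the epidermal 14-3-3 protein, rose at least 44.5-fold (adjusted p = 9.7e-09), with probes that disagreed, and Krt16 rose at least 40.7-fold (adjusted p = 0.00011).

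**Figure D4:**
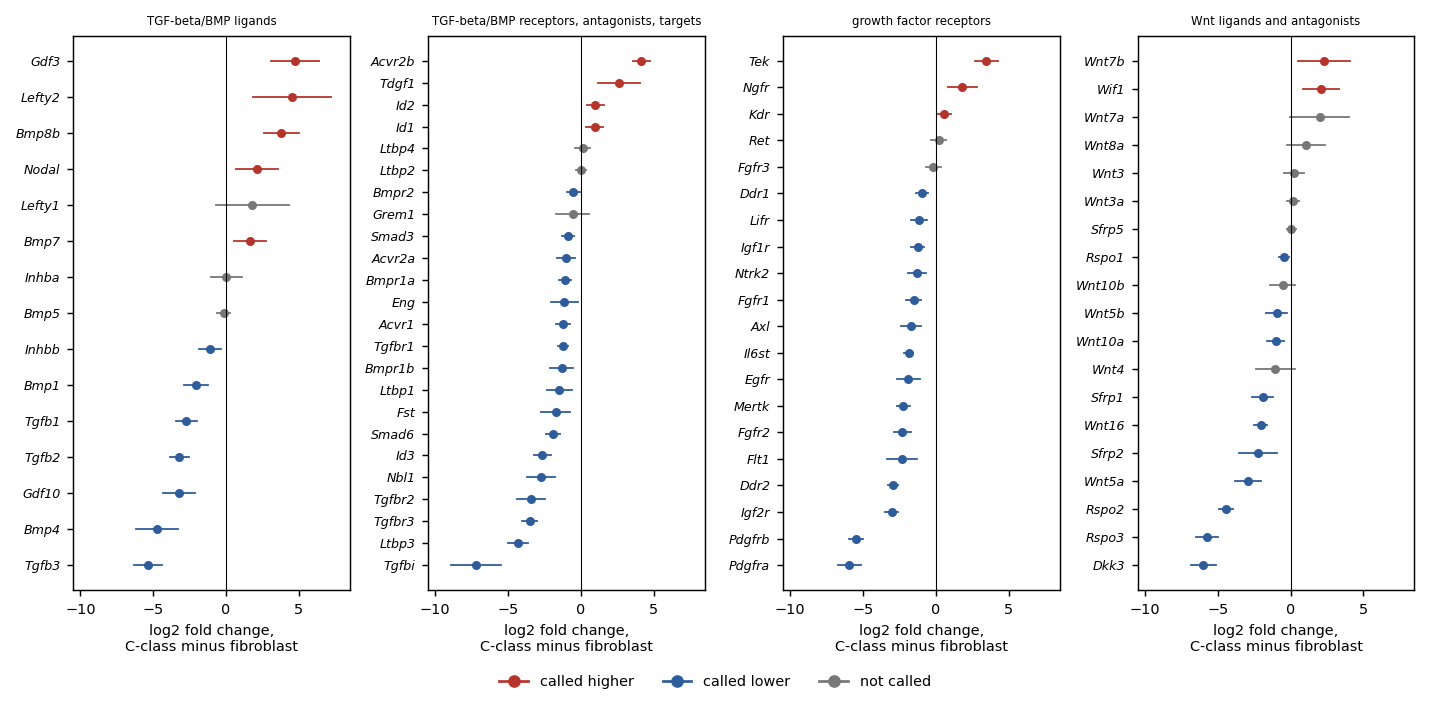
Log2 fold change, C-class clones minus fibroblasts, for every tested member of 4 signalling lists, with bars for limma's confidence interval (0.95 level). Red points were called higher, blue lower and grey not called. Most ligands and receptors lie left of 0, whereas Gdf3, Lefty2, Bmp8b, Acvr2b and Tek lie to the right.

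Signalling genes changed in both directions. In the TGF-beta family 7 of 15 ligands fell and 5 rose (46.7% and 33.3%, against 28.5% and 31.6% of all genes tested). Tgfb3 read 11.58 in the primary and 12.19 in the secondary fibroblast array and ran from 5.00 through a median of 6.64 to 7.58 in the clones. Bmp4 read 11.23 and 12.03 in primary and secondary fibroblasts, and the clones lay between 5.26 and 10.11 with a median of 6.78. The clones were separate from the fibroblasts for both, and they fell 41.1-fold (18 of 22) and 26.8-fold (21 of 22, adjusted p = 2.1e-11 and 6.1e-07). Gdf3, a ligand of pluripotent cells, read 5.06 in primary and 4.88 in secondary fibroblasts, with clones from 6.85 to 11.39 around a median of 9.87. Its rise was at least 18.2-fold, and Bmp8b, a ligand known from germ cell induction, rose at least 8.28-fold (adjusted p = 7.6e-06 and 1.7e-06). Nodal and its inhibitor Lefty2 overlapped with the fibroblasts in some clones and were called (adjusted p = 0.0091 and 0.0037). The count of rising ligands was 3 without the primary and 2 without the secondary array, and the lost calls included Nodal (log2 fold change 2.14, 2.23 and 2.06) and Bmp7 (1.63, 1.62 and 1.65). The call of Lefty2 ended without the secondary array (4.48, adjusted p = 0.05095).

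On the receiving side 17 of 24 receptors, antagonists and early targets fell. Tgfbr2, the ligand-binding TGF-beta receptor, read 12.71 in the primary and 13.75 in the secondary fibroblast array and ran from 8.98 through a median of 9.68 to 10.77 in the clones, and Tgfbr3, the co-receptor betaglycan, read 9.71 and 10.76 in primary and secondary fibroblasts, and the clones lay between 5.92 and 7.36 with a median of 6.78. Both were lower in all clones, by 10.8-fold and 11.4-fold (adjusted p = 1.3e-07 and 2.7e-13). Acvr2b, the receptor shared by activins, Nodal and Gdf3, went the other way and read 7.97 in primary and 6.93 in secondary fibroblasts, with clones from 10.37 to 12.16 around a median of 11.64. Every clone was above the fibroblasts, by 17.6-fold (adjusted p = 8.6e-14). Tdgf1, the Nodal co-receptor Cripto, rose at least 3.87-fold (adjusted p = 0.0017) with clones from 4.85 to 9.17, the lowest of which overlapped with the fibroblasts. Id1 and Id2, early targets of BMP signalling, were called higher at log2 fold changes of 0.94 and 1.00 (adjusted p = 0.0035 and 0.0042), and the Id2 call ended without the primary array (0.82, adjusted p = 0.092).

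Most genes of growth factors and their receptors fell. Of 29 ligands tested 17 fell and 4 rose, the latter count being 2 without the primary array, where Pdgfa (0.58, adjusted p = 0.22) and Lif (0.40, adjusted p = 0.33) were lost. Igf2, the fetal insulin-like growth factor, read 15.83 in the primary and 15.79 in the secondary fibroblast array and ran from 7.98 through a median of 9.76 to 12.30 in the clones, a fall of 58.2-fold (adjusted p = 1.3e-07). Vegfd and Igf1 fell 15.1-fold (18 of 22) and 10.6-fold (adjusted p = 1.8e-05 and 3.1e-09). Fgf4, the autocrine factor of ESC, read 4.97 and 4.69 in primary and secondary fibroblasts, and the clones lay between 6.39 and 8.76 with a median of 7.53. It was low but above both fibroblast arrays in all clones, a rise of at least 3.99-fold (adjusted p = 9.3e-06), and Fgf15 rose at least 4.31-fold (adjusted p = 4.8e-05). Of 20 receptors 15 fell. Pdgfra read 11.46 in primary and 12.14 in secondary fibroblasts, with clones from 4.96 to 6.63 around a median of 5.84 and Pdgfrb read 10.66 in the primary and 10.76 in the secondary fibroblast array and ran from 4.59 through a median of 5.19 to 6.04 in the clones. These receptors for platelet-derived growth factor, which define fibroblasts, were lower in every clone by 61.4-fold (16 of 22) and at least 35.2-fold (4 of 22, adjusted p = 3.3e-14 and 1e-18). Tek, the angiopoietin receptor of endothelium, read 6.06 and 5.98 in primary and secondary fibroblasts, and the clones lay between 7.74 and 10.24 with a median of 9.62, a rise of 11.1-fold (adjusted p = 4.5e-09). Ngfr and Kdr were also called higher, but Ngfr was lost without the primary array (log2 fold change 0.59, adjusted p = 0.41) and Kdr turned to -0.20 without the secondary one. Of 9 IGF-binding and IGF-processing genes 7 fell, including Igfbp4 by 43.9-fold and Htra3 by at least 15.9-fold (4 of 22, adjusted p = 3.2e-11 and 4.2e-09).

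Wnt ligands and secreted antagonists fell at 10 of 19 members and rose at 2. Dkk3, a secreted Dickkopf-family protein, and Rspo3, which strengthens Wnt signalling, were lower in every clone. Dkk3 read 12.89 in primary and 13.11 in secondary fibroblasts, with clones from 6.35 to 7.69 around a median of 7.00, and Rspo3 read 10.21 in the primary and 11.79 in the secondary fibroblast array and ran from 4.68 through a median of 5.07 to 7.05 in the clones, falls of 63.9-fold and at least 41.2-fold (5 of 22, adjusted p = 1.2e-13 and 1.8e-14). Wnt5a, the ligand of limb and gut mesenchyme, fell 7.65-fold (adjusted p = 1.3e-06). Wif1, a Wnt inhibitor, was called higher (log2 fold change 2.09, adjusted p = 0.0041) with overlapping groups, and the call of Wnt7b (2.29, adjusted p = 0.026) ended without either fibroblast array (2.30 and 2.28), and its probes disagreed. Receptors and targets of the pathway fell at 11 of 21, or at 7 without the secondary array. Fzd2, a Frizzled receptor, read 10.46 and 11.66 in primary and secondary fibroblasts, and the clones lay between 4.52 and 6.03 with a median of 5.05, and fell at least 44.7-fold (5 of 22, adjusted p = 2.4e-17), and Lgr5, the R-spondin receptor, fell at least 20.9-fold (adjusted p = 1.7e-22). Lef1, a transcription factor of the pathway, read 4.72 in primary and 4.80 in secondary fibroblasts, with clones from 5.07 to 9.12 around a median of 8.28. It rose at least 5.73-fold (adjusted p = 0.00011), and Fzd10 rose at least 8.23-fold (adjusted p = 1.5e-05) with probes that disagreed.

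Among 14 Hedgehog and Notch genes 6 fell and 2 rose (42.9% and 14.3%, against 28.5% and 31.6% of all genes tested). Smo, the Hedgehog signal transducer, fell 5.15-fold (adjusted p = 1.3e-06). Notch4, a receptor of endothelium, read 6.39 in the primary and 5.94 in the secondary fibroblast array and ran from 7.21 through a median of 11.36 to 11.91 in the clones, and Jag2, a Notch ligand, read 4.84 and 5.08 in primary and secondary fibroblasts, and the clones lay between 7.26 and 9.32 with a median of 8.39. Both were higher in every clone, by 27.2-fold and at least 7.11-fold (adjusted p = 6.1e-07 and 3.8e-09), and the probes of Notch4 disagreed. Of 32 guidance genes 19 fell and 4 rose. Epha3, an ephrin receptor, fell 48.7-fold (16 of 22), Sema3f, a repulsive semaphorin, 37.7-fold (19 of 22), and Slit2, a ligand of Robo receptors, 26.1-fold (adjusted p = 4.3e-17, 1.6e-14 and 4.9e-10). Those that rose were Epha1, Epha2, Efna3 and Sema4b, with log2 fold changes of 2.13, 1.88, 1.45 and 1.35. Retinoic acid genes fell at 8 of 12, or 5 without the primary array, with the binding proteins Crabp2 and Crabp1 lower by 11.9-fold (18 of 22) and 9.10-fold (adjusted p = 6.8e-08 and 5.1e-08).

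Genes of inflammation and antigen presentation fell as well. Chemokine, cytokine and prostaglandin genes fell at 16 of 20 members and rose at 0. Cxcl12, the stromal chemokine that holds blood stem cells in place, read 12.66 in primary and 13.67 in secondary fibroblasts, with clones from 5.85 to 9.96 around a median of 7.48. All clones were lower, by 47.9-fold (adjusted p = 6.7e-10), and Cxcl14 and Tnfrsf1a, a TNF receptor, fell 28.7-fold (21 of 22) and 9.60-fold (adjusted p = 1.1e-11 and 2.3e-12). Interferon-induced genes fell at 11 of 19. Isg15, a ubiquitin-like modifier, read 9.11 in the primary and 10.16 in the secondary fibroblast array and ran from 5.06 through a median of 5.73 to 6.90 in the clones, and Stat2, which carries the interferon signal, read 7.06 and 8.72 in primary and secondary fibroblasts, and the clones lay between 4.70 and 5.42 with a median of 4.95, with falls of 15.0-fold (14 of 22) and at least 5.15-fold (1 of 22, adjusted p = 1.5e-12 and 3.8e-13). Bst2, the membrane protein tetherin, went against this list and read 8.28 in primary and 8.08 in secondary fibroblasts, with clones from 9.96 to 11.72 around a median of 11.15, a rise of 7.45-fold (adjusted p = 5.1e-10) with no overlap. Of 17 antigen presentation and complement genes 10 fell, among them Serping1, the C1 inhibitor, by at least 27.1-fold (2 of 22) and Tap2, a peptide transporter, by 5.09-fold (19 of 22, adjusted p = 3.6e-13 and 8.8e-07). Psmb10, a subunit of the immunoproteasome, rose 4.10-fold (adjusted p = 1.2e-08).

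Macrophage transcripts moved with these lists in 1 of the fibroblast arrays. The mean over 18 macrophage markers was 6.37 in the primary and 8.53 in the secondary array, against 6.39 to 7.27 in the clones. C1qc, a complement chain of macrophages, read 4.82 in the primary and 9.91 in the secondary fibroblast array and ran from 4.78 through a median of 5.49 to 6.32 in the clones. Cd14, a co-receptor for lipopolysaccharide, read 6.88 and 9.41 in primary and secondary fibroblasts, and the clones lay between 5.04 and 6.95 with a median of 6.00. For both the secondary array stood alone, and the primary array lay in the range of the clones. Adgre1, the F4/80 antigen that defines macrophages, stood at 5.26 and 7.09 and was detected in no clone. Of the list 9 members were called lower and 2 higher, and without the secondary array 0 were called lower (C1qc 0.63, Cd14 -0.94). Lower calls among chemokine, interferon and antigen genes without that array were 12, 10 and 7. The part of macrophages in the fall of those lists was not tested. Laptm5, a lysosomal protein of blood cells, was called higher at 8.01 and 11.24 in the fibroblasts against 10.51 to 13.70 (median 13.16) in the clones, with overlapping groups, and lost its call without the primary array (1.43, adjusted p = 0.21).

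Markers of other lineages showed no shared direction. Of 13 muscle markers 7 fell, including Myl1, a myosin light chain, by at least 12.3-fold and Myl4 by 7.96-fold (20 of 22, adjusted p = 5.7e-26 and 1.2e-06). Of 8 cartilage and bone markers 5 fell, including Sox9, the regulator of cartilage, by at least 5.95-fold (1 of 22, adjusted p = 1.3e-13), and Alpl, an alkaline phosphatase that also marks pluripotent cells, rose 9.12-fold (adjusted p = 8.5e-08). The endoderm factors Gata6 and Dab2 fell 6.03-fold (15 of 22) and 8.17-fold (adjusted p = 1.3e-07 and 7.5e-05), and the other 6 of 8 endoderm markers did not pass. Endothelial markers were called higher at 2 of 10 members (20%) and lower at 1 (10%). Adipocyte markers were called higher at 1 (16.7%) and lower at 2 (33.3%) of 6. Over all genes tested the shares were 31.6% and 28.5%.

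Single members of several lineages rose. Stmn2, a microtubule regulator of neurons, read 8.64 in primary and 7.21 in secondary fibroblasts, with clones from 11.21 to 13.47 around a median of 12.97, and Mbp, the myelin basic protein gene, read 5.65 in the primary and 6.15 in the secondary fibroblast array and ran from 8.77 through a median of 9.67 to 10.30 in the clones. Every clone was above both fibroblast arrays for them, and the rises were 29.9-fold and 12.5-fold (adjusted p = 8.2e-14 and 1.3e-12), with probes that disagreed for Mbp, while 4 of 8 neural markers did not pass. The globin genes Hbb-y, the embryonic beta chain, and Hba-a1 rose at least 12.4-fold and at least 9.50-fold (adjusted p = 0.00051 and 2.7e-07). Gata2 and Klf1, factors of the red-cell lineage, did not pass (log2 fold change 0.34 and 0.16). Evx1, a homeobox factor of the primitive streak, rose at least 15.2-fold (adjusted p = 9.9e-10) with clones from 8.15 to 10.19, while Mesp1 and Cdx4 did not pass. In trophoblast 4 of 11 markers rose (36.4%, against 31.6% of all genes tested), a count that fell without either fibroblast array. Tfap2c, an AP-2 factor shared by trophoblast, germ cells and epithelium, read 4.70 and 4.91 in primary and secondary fibroblasts, and the clones lay between 9.89 and 12.52 with a median of 12.04, a rise of at least 86.9-fold (adjusted p = 2.6e-16). Among 13 germline genes 3 rose (23.1%, below the share of all genes tested). They were led by Tex19.1, a guardian against retrotransposons, and Piwil2, which binds piRNAs, by at least 13.2-fold and at least 5.97-fold (adjusted p = 0.00011 and 6.7e-05).

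Pluripotency transcription factors rose at 17 of 23 members, with a median of 3.08, or 2.76 at the bounds. At 12 of the 23 every clone lay above both fibroblast arrays. With array weights, which let the spread differ between groups, 10 were called higher, a setting that lowered the calls over all genes as well. Pou5f1, the gene of Oct4, read 4.61 in primary and 4.61 in secondary fibroblasts, with clones from 10.72 to 13.74 around a median of 13.19, a rise of at least 179.9-fold (adjusted p = 1e-15). Zscan10, a partner of Oct4 in ESC, read 4.69 in the primary and 4.76 in the secondary fibroblast array and ran from 8.90 through a median of 10.13 to 10.56 in the clones, and Zfp296 read 5.42 and 5.07 in primary and secondary fibroblasts, and the clones lay between 9.45 and 11.18 with a median of 10.49. All clones were above the fibroblasts for them, and the rises were at least 22.2-fold and at least 31.6-fold (adjusted p = 6e-14 and 3.3e-14). Nr5a2, a nuclear receptor, and Dppa4 rose at least 16.3-fold and at least 20.0-fold (adjusted p = 7.1e-06 and 0.00075), both with probes that disagreed. Other members fell. Klf2, a Krüppel-like factor of naive pluripotent cells, read 10.17 in primary and 10.20 in secondary fibroblasts, with clones from 5.89 to 9.45 around a median of 7.36, and Rarg, a retinoic acid receptor, read 8.48 in the primary and 8.31 in the secondary fibroblast array and ran from 6.55 through a median of 6.97 to 7.62 in the clones. No clone overlapped with the fibroblasts for them, and they fell 6.67-fold and 2.54-fold (adjusted p = 3.6e-05 and 7.1e-06). Klf4 and Myc, which were supplied to the cells, did not pass (log2 fold change -0.61 and 0.43, SE 0.40 and 0.31, adjusted p = 0.18 and 0.24). Whether the probes of the 4 supplied factors read the transgenes is not given in the labels, so transgene and native transcripts cannot be told apart. Of 26 other pluripotency-associated genes 19 rose and 0 fell, and 11 were called higher with array weights. At 13 of the 26 every clone lay above both fibroblast arrays. Those that rose included Slc2a3, the high-affinity glucose transporter, by 13.5-fold and Mreg, a melanosome transport protein, by at least 30.9-fold (adjusted p = 2.7e-07 and 4.8e-14).

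Genes of growth and division rose almost throughout. Of 26 DNA replication genes 24 rose and 0 fell, with a median of 1.59. Mcm10, which helps to start replication forks, read 9.36 and 9.18 in primary and secondary fibroblasts, and the clones lay between 11.49 and 12.38 with a median of 12.14, and Cdt1, the licensing factor, read 10.15 in primary and 9.18 in secondary fibroblasts, with clones from 11.86 to 12.62 around a median of 12.34. Every clone was above the fibroblasts, by 7.02-fold and 6.30-fold on average (adjusted p = 3.2e-17 and 4.2e-14). Rrm1 and Prim1 did not pass. Mitotic genes rose at 21 of 25, with Ccnf, an F-box cyclin, and Cdc20, an activator of the anaphase-promoting complex, at least 7.02-fold (1 of 2) and 4.62-fold higher (adjusted p = 1.6e-12 and 2.8e-14). The mitotic kinase Plk1 did not pass, and the fibroblast arrays stood on either side of the clones. It read 5.87 in the primary and 9.83 in the secondary fibroblast array and ran from 6.89 through a median of 7.35 to 8.09 in the clones, and without the secondary array it was higher by 1.52 (adjusted p = 5.1e-05). Cyclins, CDKs and their inhibitors were mixed, at 9 higher and 6 lower of 20, or 5 and 4 without the secondary array. Their shares with both arrays were 45% higher and 30% lower, against 31.6% and 28.5% of all genes tested. The S-phase cyclin Ccne2 rose 4.24-fold, Ccnd2 fell 4.12-fold, and the CDK inhibitors Cdkn1c and Cdkn2c fell 14.9-fold and 5.19-fold (adjusted p = 2.5e-09, 1.1e-05, 0.00046 and 9.6e-13).

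Nucleolar genes that make ribosomes rose at 24 of 25 members, with a median of 1.69, and Pes1 did not pass (log2 fold change 0.18, adjusted p = 0.54). Polr1e, a subunit of RNA polymerase I, read 9.74 and 8.74 in primary and secondary fibroblasts, and the clones lay between 11.33 and 12.03 with a median of 11.78, and Ncl, the nucleolar protein nucleolin, read 9.93 in primary and 9.65 in secondary fibroblasts, with clones from 11.86 to 12.85 around a median of 12.12. The spread between clones was small beside the rises of 5.77-fold and 5.17-fold (adjusted p = 6.6e-15 and 3.1e-13). Translation factors and tRNA synthetases rose at 16 of 26, and 3 fell, among them the alanine synthetase Aars by 2.42-fold (adjusted p = 2.6e-12). Purine, pyrimidine, serine and one-carbon genes rose at 17 of 22, with a median of 1.29. Gldc, which cleaves glycine to feed one-carbon units, read 5.78 in the primary and 5.47 in the secondary fibroblast array and ran from 8.01 through a median of 11.88 to 12.70 in the clones. It rose 61.9-fold (adjusted p = 5e-10), and Shmt1 and Ppat, the first enzyme of purine synthesis, rose 12.9-fold and 8.59-fold (adjusted p = 1.7e-15 and 6.3e-16).

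Fewer glycolysis, respiratory chain and cholesterol synthesis genes were called without the secondary fibroblasts. Leaving out that array lowered the calls over all genes tested as well, so a drop alone is not particular to these lists. Glycolysis genes were called higher at 9 of 18 members, but at 3 without the secondary array. With both arrays 3 of the 18 were called lower (16.7%, against 28.5% of all genes tested). These were Hk1, Eno2 and Pfkm (log2 fold change -0.97, -1.40 and -1.36), and each call ended with array weights. Hk2, a hexokinase, read 11.64 and 9.82 in primary and secondary fibroblasts, and the clones lay between 12.68 and 13.46 with a median of 13.06, and rose 5.02-fold (adjusted p = 1.5e-10). Pkm, pyruvate kinase, stood at 14.59 and 12.57 in the fibroblasts against 14.47 to 14.93 (median 14.72) in the clones and was no longer called without the secondary array (log2 fold change 1.12 with it and 0.12 without). Respiratory chain and TCA genes were called higher at 17 of 32, or 10 without that array. Cycs, cytochrome c, and Idh3a rose 2.66-fold and 2.55-fold, and Idh2, the mitochondrial NADP-dependent isocitrate dehydrogenase, fell 2.90-fold (adjusted p = 5.2e-08, 1.6e-08 and 7e-04). Cholesterol synthesis genes were called lower at 5 of 17, or 1 without it, a share close to the background. Lysosomal genes fell at 14 of 19 and rose at 0. Hexa, a hexosaminidase, read 10.85 in primary and 12.01 in secondary fibroblasts, with clones from 7.09 to 8.72 around a median of 7.73, and Ctsh, a cathepsin, read 9.65 in the primary and 9.48 in the secondary fibroblast array and ran from 5.56 through a median of 6.70 to 7.63 in the clones, falls of 12.4-fold and 7.92-fold (21 of 22, adjusted p = 2.6e-12 and 3.3e-07). Of 19 lipid genes 7 fell (36.8%, against 28.5% of all genes tested) and 2 rose (10.5%, against 31.6%). Those that fell included the desaturases Fads3, Fads1 and Fads2 by 10.00-fold (21 of 22), 3.77-fold and 3.66-fold (adjusted p = 9.2e-09, 4.1e-08 and 2.3e-06).

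Stress genes included both rises and falls. In the list of ATF4, endoplasmic reticulum and heat-shock genes 10 of 25 fell and 6 rose. These are 40% and 24%, against 28.5% and 31.6% of all genes tested. Ddit3, the stress factor CHOP, read 11.46 and 10.91 in primary and secondary fibroblasts, and the clones lay between 6.41 and 8.69 with a median of 7.44, and fell 13.4-fold (adjusted p = 2e-10). Chac1 and Trib3, targets of ATF4, fell 12.9-fold and 10.5-fold (21 of 22, adjusted p = 2.4e-08 and 1.1e-09). The risers were all chaperones, and Hsp90aa1, Hspd1 and Hsph1 were 3.03-fold, 2.92-fold and 2.72-fold higher (adjusted p = 3.5e-07, 1.3e-10 and 1.6e-09). Of 26 glutathione and NRF2 genes 8 rose and 11 fell (30.8% and 42.3%, against 31.6% and 28.5% of all genes tested). Gsta4 rose 5.95-fold, and Gpx7, Gpx3 and Gpx8, glutathione peroxidases of the secretory route, fell 16.1-fold, 9.37-fold and 9.02-fold (adjusted p = 4.1e-06, 1.5e-10, 5e-08 and 2.4e-07). Targets of p53 and senescence genes were called higher at 9 and lower at 5 of 21, or 6 and 2 without the secondary array. With both arrays the shares were 42.9% higher and 23.8% lower, against 31.6% and 28.5% of all genes tested. Aen and Mdm2 rose 3.10-fold and 2.64-fold (adjusted p = 1.5e-11 and 1.7e-07). Immediate early genes mostly did not pass (12 of 17), but Dusp4, a MAP kinase phosphatase, and Fosl1 rose 6.88-fold and at least 3.88-fold (1 of 2, adjusted p = 1.2e-07 and 1.9e-05). Lower calls were made for Egr2, Jund and Klf6 (log2 fold change -0.89, -0.82 and -0.97, adjusted p = 0.028, 0.035 and 0.0026), and the probes of Klf6 disagreed. The Egr2 call ended without the primary array (-0.43, adjusted p = 0.46), and those of Jund and Klf6 without the secondary one (-0.31 and -0.91, adjusted p = 0.62 and 0.05347).

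Chromatin genes changed in both directions. Dnmt3b, a de novo DNA methyltransferase, read 8.02 in primary and 8.17 in secondary fibroblasts, with clones from 10.38 to 14.22 around a median of 12.70. All clones were above the fibroblasts, by 23.0-fold (adjusted p = 3.8e-08). In its list 7 of 9 rose, or 4 without the secondary array. The germ-cell cofactor Dnmt3l was lost without either array (log2 fold change 3.88 with both, 4.78 without the primary and 2.97 without the secondary). Polycomb genes rose at 10 of 18 and fell at 3. Cbx7, a reader of the polycomb mark, Phc1, and Ezh2, its writer, rose at least 5.00-fold (1 of 2), 4.23-fold and 3.24-fold, and Cbx8 was 1.93-fold (20 of 22) lower, a call that ended without the primary array (adjusted p = 4.6e-05, 2.8e-12, 5.2e-10 and 0.0066, log2 fold change of Cbx8 -0.78 without it). Histone deacetylase, NuRD and BAF genes were near the background at 8 higher and 6 lower of 23, and the higher count was 4 without the secondary array. Within it Hdac7, a class IIa deacetylase of vessels and muscle, read 9.28 in the primary and 9.95 in the secondary fibroblast array and ran from 4.72 through a median of 5.46 to 6.47 in the clones, and the BAF subunit Smarcd3 read 8.68 and 9.22 in primary and secondary fibroblasts, and the clones lay between 4.78 and 5.32 with a median of 4.97. These falls of at least 15.0-fold (10 of 22) and at least 10.7-fold were the largest of the list (adjusted p = 1.1e-12 and 1.7e-17).

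Imprinted genes fell at 9 of 17 and rose at 3. Dlk1, a Notch-like ligand, and Mest fell 48.3-fold (18 of 22) and 15.1-fold (adjusted p = 6.3e-10 and 4.3e-09). Phlda2, a maternally expressed brake on placental growth, read 5.25 in primary and 4.80 in secondary fibroblasts, with clones from 7.67 to 13.10 around a median of 10.86. It was undetected in both fibroblast arrays and detected in every clone, a rise of at least 34-fold (adjusted p = 3.1e-05), and Snrpn rose 4.73-fold (adjusted p = 7.4e-10). DNA repair and telomere genes rose at 12 of 15, among them Ung, the uracil glycosylase, with probes that disagreed, and Blm, a helicase, by 7.46-fold and 4.29-fold (adjusted p = 3.6e-14 and 3.8e-11). Amino acid and ion transporters rose at 14 of 25, or 9 without the secondary array, and fell at 6. Slc6a15, a neutral amino acid transporter, and Tfrc, the transferrin receptor, rose at least 20.0-fold (1 of 2) and 10.7-fold, and the glutamate transporter Slc1a3 fell 14.7-fold (16 of 22, adjusted p = 4.9e-14, 1.4e-15 and 0.00014). Common reference genes were not constant. Rplp0 and Hprt rose 2.13-fold and 2.00-fold, B2m fell 3.25-fold (adjusted p = 1.9e-06, 1.1e-06 and 3e-05), and Actb, whose probes disagreed, did not pass (log2 fold change -0.11, adjusted p = 0.41).

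ESC were compared with the clones in the same fit, where 22.8% of all genes tested were higher and 22.3% lower in the clones, together 45.1%. Of the 24 junction genes 8 were higher than in ESC, 3 lower and 13 not called, and the difference did not pass for Cdh1 (-0.12, SE 0.37, adjusted p = 0.82). Of the 24 epithelial regulators and proteases 12 were higher, 5 lower and 7 not called, and of the 21 keratin and keratinocyte genes 13 were higher, 1 lower and 7 not called. Krt14 stood at 5.76 and 5.55 in the ESC arrays, close to the dimmest detected signal, and was higher in the clones by a log2 difference of 7.17 (adjusted p = 1.9e-05). Krtdap was detected in neither ESC array and was at least 217-fold higher in the clones (adjusted p = 6.7e-17). Ly6g6c was detected in 1 of the 2 ESC arrays, at 7.87 against 5.15, and was at least 128-fold higher in the clones (adjusted p = 3e-06). Nup210 and L1td1 were above ESC as well, by 0.80 and 1.63 (adjusted p = 0.0063 and 0.0022). The difference from ESC did not pass for Pou5f1 (-0.46, SE 0.48, adjusted p = 0.45), Sall4 (-0.47, SE 0.28, adjusted p = 0.18) or Trh (-1.19, SE 1.01, adjusted p = 0.35). Dppa5a stood at 15.85 and 15.87 in ESC, above every clone, but with its wide spread the difference of -4.05 did not pass either (SE 1.77, adjusted p = 0.061).

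The study's other class of day-16 clone, named F-class and measured on 6 arrays, was set beside them in the same fit. Of all genes tested, 24.7% differed between C-class and F-class, and of the 15 largest rises and 15 largest falls 10 did. These genes were picked by the size of their C-class change, which favours genes where C-class is the more extreme class. Dppa5a was higher in C-class by a log2 difference of 3.52 (SE 1.10, adjusted p = 0.018) and Ly6g6c by 3.30 (SE 0.67, adjusted p = 0.00046). Cldn4 and Krt17 were higher by 2.60 and 2.50 (adjusted p = 8.8e-06 and 0.0033). Capn6, a calpain without protease activity, and Nup210 were lower in C-class, by -1.50 and -0.55 (adjusted p = 0.018 and 0.0057).

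**Figure D5:**
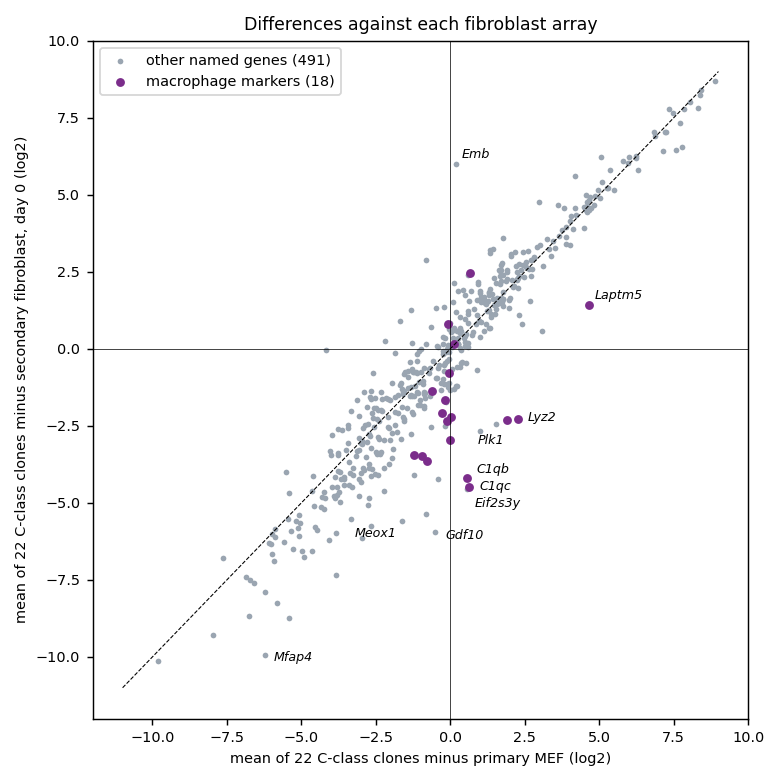
Mean of the 22 C-class clones minus the primary (horizontal axis) and minus the secondary fibroblast array (vertical axis), in log2 units, for the named genes and all macrophage markers tested. The dashed line marks equal differences. Most genes lie along it, and macrophage markers such as C1qb and C1qc lie below it because the secondary array alone was high.

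The 2 fibroblast arrays did not give the same difference for every gene. Of the 1410 genes more than 2-fold apart, 684 were higher in the primary and 726 in the secondary array. Gdf10, a BMP-like ligand, read 5.39 in the primary and 10.81 in the secondary fibroblast array and ran from 4.62 through a median of 4.86 to 5.67 in the clones, and Meox1, a homeobox factor, read 6.32 and 10.28 in primary and secondary fibroblasts, and the clones lay between 4.54 and 4.98 with a median of 4.67. The fall of Gdf10 came from the secondary array, and without it the call ended (log2 fold change -0.52, adjusted p = 0.062), whereas Meox1 fell against both. Sp7, the bone factor osterix, went the other way and read 9.49 in primary and 5.35 in secondary fibroblasts, with clones from 4.85 to 5.93 around a median of 5.28, so that without the primary array its log2 fold change was -0.03 (adjusted p = 0.95). Emb, a cell adhesion protein, was at 11.18 and 5.36 in the fibroblasts against 10.77 to 12.11 (median 11.28) in the clones and its call as higher ended without the secondary array (log2 fold change 0.19, adjusted p = 0.68). The primary array has its values deposited to 1 decimal like all clones, whereas the secondary array has more decimals, so a difference in handling and the kind of fibroblast cannot be told apart.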

How the data were processed

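Total RNA was measured on Illumina bead arrays with biotin label. Tables give 1 value per probe. The deposited non-normalized table holds a raw intensity per probe and array with a detection p-value beside it, per the file headers. A second deposited table holds intensities that the authors scaled so that arrays share 1 median, by a method not given in the sources used here, as are the scanner and software. Groups came from the labels alone, and members and gene lists were chosen with earlier results of these data known.

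Of 25697 probes, 23978 had 1 gene in the platform annotation, 0 had several and 1719 had none. Of 16593 genes, 16582 Entrez numbers were found in RefSeq's table of GRCm38.p6, and 0 symbols changed. In R 4.3.3 with limma 3.58.1, all 51 arrays were corrected and quantile-normalized with neqc (offset 16), with the background taken from the detection p-values, which turned the deposited intensities into log2 values. A gene took its probe with the highest mean. The 11046 genes detected (p under 0.05) on at least 2 of 34 arrays of fibroblasts, C-class and F-class clones, iPSC (induced pluripotent stem cells) and ESC (embryonic stem cells) were fitted with lmFit and eBayes, two-sided, with Benjamini-Hochberg adjustment. Of 3014 genes with several probes, 949 had probes that disagreed on the call or its direction. For a gene that at most 1 fibroblast array or 11 clones, as the lower group, detected, the fold was taken against the higher of the lowest detected signal and its own value on each array. The pipeline was tested on simulated data. The number of arrays limits the precision.

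Named genes are the 15 largest called rises and falls with a gene symbol, up to 6 members of each list by size of change, called members that went against their list, members that did not pass where these were 4 or fewer, the 8 called genes with the widest spread over clones, the 8 with the widest difference between fibroblast arrays, and the genes of promoters shown. Thy1 and Adgre1 were added after their values were seen. Alternatives covered the normalization, the authors' scaled values, the detection filter, the probe rule, array weights, the number format, a fold requirement and leaving out each array. Promoter letters were read from RefSeq windows of GRCm38.p6. The other arrays of the series were used only in the normalization and the shared fit.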

Additional observations from a re-analysis of the deposited data

Results flagged for a closer look

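Of the 30 genes with the largest change between C-class clones and fibroblasts, 10 differed between C-class and F-class clones in the same fit. Because they were picked by the size of the C-class change, genes in which C-class is the more extreme class were favoured. Since both classes were measured against the same 2 fibroblast arrays, the difference of their changes is the difference of the classes, C-class minus F-class on the log2 scale. It was 3.52 for Dppa5a, 3.30 for Ly6g6c, 2.60 for Cldn4, 2.50 for Krt17, 1.97 for Aldh3a1, 1.20 for L1td1, 1.19 for Cyp4f39 and 0.60 for Sall4, so these rises were larger in C-class. Nup210 rose less in C-class (-0.55). Capn6 fell further in C-class (-1.50, limma adjusted p = 0.018). The F-class means were 8.30 for Dppa5a (SD 2.90), 10.30 for Ly6g6c (SD 2.83) and 9.32 for Cldn4 (SD 1.63), against C-class means of 11.82 (SD 2.58), 13.60 (SD 1.03) and 11.92 (SD 0.62).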

How the results depend on the processing

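The count of called genes (6633, with 3487 higher and 3146 lower) fell most under array weights and under settings that ask for a larger change. Array weights by group, which let the spread differ between the groups, left 4234 calls, 2134 of them higher. The calls lost there included Dppa5a, Dppa4, Hbb-y and Cdkn1c (limma adjusted p = 0.096, 0.08, 0.065 and 0.059). A change of at least 2-fold was met by 3763 genes (1825 higher, 1938 lower), and limma's treat against a 2-fold change called 1961 (879 higher, 1082 lower). Leaving out each clone in turn gave 6584 to 6702 calls, 3454 to 3534 higher and 3130 to 3168 lower. Without the primary array 6143 genes were called (3225 higher, 2918 lower) and without the secondary array 4926 (2442 higher, 2484 lower). Genes whose groups did not overlap went from 4839 to 7128 without the primary and 5977 without the secondary array, since 1 array is easier to clear than 2. Under the other 8 settings calls ran from 5918 to 6810. Median centring turned the share of higher calls from 52.6% to 48.1%.

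Of 414 named genes called, 107 lost the call under at least 1 setting without a fold requirement. Signs depended on the fibroblast array for C1qc (-4.47 without the primary and 0.63 without the secondary), Eif2s3y (-4.56 and 0.56), Kdr (1.36 and -0.20), Zmat3 (-1.30 and 0.11), Plk1 (-2.44 and 1.52) and Ltbp4 (-0.67 and 0.91). They also turned with number format as a term for Kdr (-0.052) and Zmat3 (0.029), and with the mean of all probes for Col11a1 (-0.65). The cause was not tested. No paired analysis was possible because the labels do not pair single clones with single fibroblast arrays. Dim genes have only bounds, and having only 2 fibroblast arrays limits the precision.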

Other observations

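Transcripts of the sex chromosomes differed between the fibroblast arrays. Xist, the RNA that coats the inactive X chromosome, stood at 8.84 in the primary and 5.39 in the secondary array, and the clones lay between 8.28 and 9.15. Eif2s3y, a Y-linked translation factor gene, stood at 4.56 and 9.68, with clones from 4.64 to 5.70. Uty, another Y-linked gene, stood at 6.03 and 7.06, with clones from 5.10 to 6.45. For Xist and Eif2s3y the primary array lay close to the clones, and the secondary array stood alone. The labels do not give the sex of any embryo or line.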
